A study of Danio rerio with 3 samples.

Results

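The nuclear genes of oxidative phosphorylation were measured in single cells of adult zebrafish (*Danio rerio*) retina. They were taken by symbol: every lower-case symbol that starts with nduf, uqcr or atp5, every cox symbol followed by a digit, and *sdha*, *sdhb*, *sdhc*, *sdhda* and *sdhdb*. Rows that carry the same symbol apart from a number added at the end were added up. This gave 107 genes of 30579 symbols: 37 of complex I, 5 of complex II, 8 of complex III, 24 of complex IV, 16 of complex V, and 17 whose products assemble or mature the complexes. A UMI was found for 104 of them in each V3 library and for 101 in the V2 library.

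Oxidative phosphorylation takes place in the inner mitochondrial membrane. Complex I (NADH dehydrogenase) and complex II (succinate dehydrogenase, also an enzyme of the TCA cycle) pass electrons to complex III (cytochrome bc1), and complex IV (cytochrome c oxidase) hands them to oxygen, while complex V (ATP synthase) uses the proton gradient to make ATP. Most subunits are encoded in the nucleus and the rest in mitochondrial DNA. Photoreceptors use much ATP for ion pumping and keep their mitochondria packed in the inner segment.

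The study compared WT retina with that of a transgenic line that carries the P23H mutant rhodopsin, a model of retinitis pigmentosa in which rods die and are replaced. The WT V3 library held retinal cells of WT AB fish with the 10X V3 chemistry, and the P23H V3 and P23H V2 libraries held cells of P23H-positive fish of line uth4Tg with the V3 and V2 chemistries. Each library pooled 3 fish, given in the labels as 4 to 8 months old and collected 2 to 4 h after light onset, whereas the methods of the study give another range for both. With 1 library per group there is no replicate: genotype, fish line and library cannot be told apart, the V2 chemistry cannot be told apart from its library, and no test between conditions was possible.

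The libraries held 32916412 UMIs in 13966 barcodes for WT V3, 31429971 in 15585 for P23H V3 and 3220964 in 7956 for P23H V2, with medians of 1198, 1241 and 293 UMIs per barcode. Both V3 libraries shared 62 barcodes. Cells were clustered without the 107 genes and named by marker genes. This gave 14 cell types with 12188 WT and 15042 P23H V3 cells, and 12 types with 4671 P23H V2 cells. Unnamed cells, left out of the cell types, numbered 1366 in WT V3, 472 in P23H V3 and 0 in P23H V2. The median unnamed cell had 3.59% of its UMIs from the 107 genes in WT V3 and 1.88% in P23H V3. Every marker of a type was detected in that type. The rods of the P23H V2 library stood apart: *rho*, rhodopsin itself, made up 24.98% of rod UMIs in WT V3, 13.5% in P23H V3 and 1.95% in P23H V2, and markers of newly formed rods made up 0.110%, 0.180% and 1.55%. Here 474 P23H V2 cells were named rods and 445 newly formed rods. The study counted more newly formed rods than rods in its V2 run of P23H, so the namings differ. Free RNA was estimated at no more than 3.4% of the UMIs of any named type. The estimate used the marker of other types that was lowest there relative to the whole library, which makes it a low one. Rod markers made up 1.80% of UMIs in WT V3 bipolar cells and 1.19% in WT V3 amacrine cells. In P23H V3 they made up 0.261% and 0.212%.

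For each gene, UMIs were added up within a cell type and given as CPM, a level scaled to the total UMIs of that type, or for the whole group as a percent of UMIs, with exact 95% Poisson intervals. A call of higher or lower was made where the 2 levels differed by at least 1.5 times and the intervals did not overlap, among genes with at least 50 UMIs over both libraries in the type. Ratios are of P23H to WT on the log2 scale. All intervals cover counting error only, and leave out the variation between fish and between preparations. Of the 107 genes, 94 reached that minimum in at least 1 type and 57 in all 14, while 13 reached it in none (*cox10*, *cox11*, *cox7a3*, *ndufa1*, *ndufa12*, *ndufa4*, *ndufa4l2a*, *ndufa8*, *ndufaf7*, *ndufb4*, *ndufb9*, *ndufs4* and *sdhc*).

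Cones stood highest in the WT retina. The 107 genes made up 5.76% (5.74 to 5.78) of the UMIs of WT cones and 4.39% (4.35 to 4.43) of those of retinal ganglion cells (RGCs), the output neurons of the retina. Bipolar cells (3.93%) and horizontal cells (3.87%) followed and their intervals overlapped, and then came amacrine cells (3.61%), newly formed rods (3.26%) and oligodendrocytes (2.96%). Neurogenic progenitors (NPCs, 2.82%) overlapped Müller glia (2.79%), and the retinal pigmented epithelium (RPE, 2.44%) overlapped rods (2.42%). Dividing retinal progenitors (RPCs, 2.11%), microglia (1.55%) and erythroid cells (0.834%) were lowest. By percent of all UMIs, rods thus ranked near the bottom and cones at the top. The rank of the rods depended on the total: the 20 most abundant genes took 48.2% of WT rod UMIs, and with totals that leave out the 20 most abundant genes of each type the level was 4.67% in rods and 10.1% in cones, and rods ranked 5 of 14, after cones, RGCs (5.13%), bipolar cells (5.00%) and horizontal cells (4.97%).

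**Figure D1:**
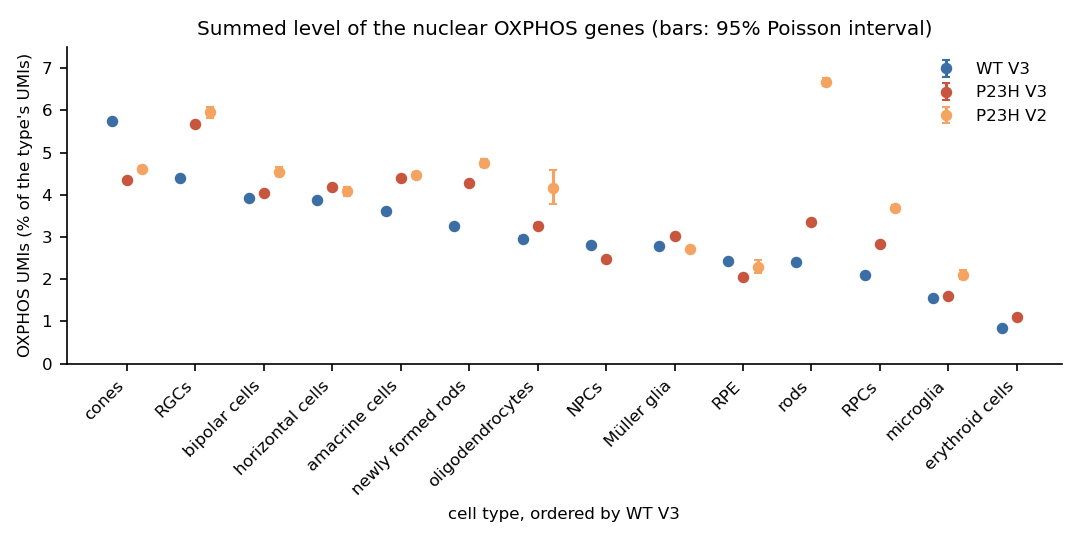
Percent of the UMIs of each cell type that came from the 107 nuclear oxidative phosphorylation genes, in the WT V3, P23H V3 and P23H V2 libraries, with exact 95% Poisson intervals. WT cones (5.76%) lie above the cones of both P23H libraries (4.36% and 4.62%), and WT rods (2.42%) lie below the rods of both (3.36% and 6.68%).

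The lead of the cones was spread over the group. In WT, 55 of the 107 genes had their highest level in cones and 18 in RGCs. Set against all other named WT cells, 63 of 95 genes tested were higher in cones, beside 9.48% of all genes in that comparison. In the P23H V3 library 15 of 94 were higher in cones, beside 8.41% of all genes. There the highest level was found in RGCs for 49 genes, in newly formed rods for 12 and in cones for 9. In P23H V2 it was found in rods for 39 and in RGCs for 24. The type with the highest level was not counted over all genes, so these counts have no background beside them.

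The order of the types differed in the P23H libraries. In P23H V3 the group was highest in RGCs (5.68%), followed by amacrine cells (4.40%), cones (4.36%), newly formed rods (4.27%), horizontal cells (4.17%) and bipolar cells (4.05%). Rods (3.36%) overlapped oligodendrocytes (3.26%), and Müller glia (3.03%), RPCs (2.83%), NPCs (2.48%), RPE (2.06%), microglia (1.60%) and erythroid cells (1.10%) followed. In P23H V2 rods stood first (6.68%) and RGCs second (5.95%), and the next 6 types, from newly formed rods (4.75%) to horizontal cells (4.08%), overlapped their neighbours. Markers of newly formed rods made up 1.55% of UMIs in the P23H V2 rods, beside 1.49% in the newly formed rods of P23H V3. With totals that leave out the 20 most abundant genes of each type, cones (7.97%) stood before RGCs (6.42%) in P23H V3 too. By percent of all UMIs, RGCs were thus first or second in every library, whereas rods were among the last 4 types in WT V3, in the middle in P23H V3 and first in P23H V2.

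The make-up of the group by complex varied over narrower ranges. In WT, complex V gave between 31.1% of its UMIs in oligodendrocytes and 38.6% in newly formed rods, complex IV between 26.6% in rods and 36.0% in microglia, and complex I between 17.5% in microglia and 27.5% in rods. Complex III gave 6.43% to 8.81%, complex II 1.32% to 2.89%, and the assembly factors 1.46% to 3.02%. Rods therefore had the largest complex I share and the smallest complex IV share of the 14 WT types.

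The summed levels of cones and rods differed from WT in opposite directions. In cones the group made up 5.76% in WT V3, 4.36% in P23H V3 and 4.62% in P23H V2, log2 ratios of -0.40 and -0.32. In rods it was 2.42%, 3.36% and 6.68%, log2 ratios of 0.47 (0.45 to 0.50) and 1.46. Both P23H libraries were set against the same WT library, so these are not independent comparisons. The rod direction in V3 is that of the sum, since the median rod had 2.34% in WT V3 and 2.27% in P23H V3. Rod markers made up 30.8% of rod UMIs in WT V3, 18.0% in P23H V3 and 2.96% in P23H V2, and their part in the ratios was not tested. The group was higher in both P23H libraries in 8 of the 12 types they share (rods, newly formed rods, bipolar, amacrine and horizontal cells, RGCs, RPCs and oligodendrocytes) and lower in both in 1, the cones.

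Besides rods and cones, RPCs (0.42 in V3 and 0.81 in V2), RGCs (0.37 and 0.44), amacrine cells (0.28 and 0.31) and newly formed rods (0.39 and 0.54) were higher in both. Bipolar cells (0.04 and 0.21), horizontal cells (0.11 and 0.07), Müller glia (0.12 and -0.03) and microglia (0.04 and 0.44) lay near 0 in at least 1 library. Oligodendrocytes gave 0.14 and 0.49, and erythroid cells and NPCs, which were named only in the V3 libraries, gave 0.39 and -0.18. Over the 12 settings compared, P23H V2 included, the sum kept its sign in rods, newly formed rods, RPCs, RGCs, amacrine, bipolar and horizontal cells, all above 0, and in cones, below 0. The other 6 types changed sign in at least 1 setting. The 12 settings include the main processing itself and copies kept apart, which cannot change a sum. The mixed cluster and single clusters were left out of this count. In amacrine cells of P23H V2, Müller glia markers made up 0.786% of UMIs and amacrine markers 0.610%. Müller glia markers made up 0.0356% of amacrine UMIs in WT V3 and 0.0324% in P23H V3, and their part in the V2 ratio was not tested.

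**Figure D2:**
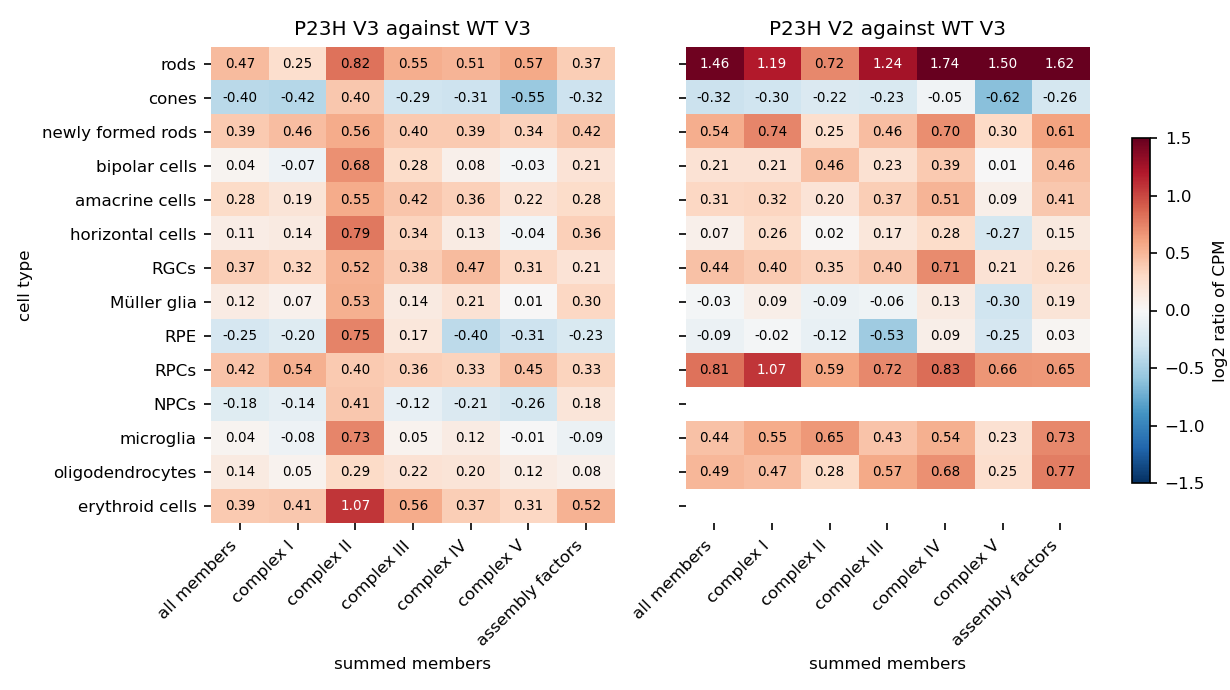
Log2 ratio of the summed CPM of the group and of each complex to WT V3, by cell type, for P23H V3 (left) and P23H V2 (right), printed in each cell and coloured on a scale that ends at 1.5 either way; blank types were not named in P23H V2. In P23H V3 complex II is above 0 in all 14 types, including cones (0.40) and RPE (0.75), where the other complexes except complex III in RPE are below 0.

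In cones and RPE of P23H V3, complex II did not follow most of the other complexes. It carries electrons from succinate and, unlike the rest, has no subunit encoded in mitochondrial DNA. In P23H V3 its log2 ratio ran from 0.29 to 1.07 over the 14 types, and its interval lay above 0 in 13. The intervals of complexes III and IV lay above 0 in 11 of 14 types each. Within complex II, *sdha* and *sdhb* were called higher in most types. The sum of *sdhda* and *sdhdb* was called higher in 1 of 14 and lower in 0, with a median log2 ratio of 0.14. *Sdhc* had only 9 UMIs in WT V3 and 14 in P23H V3. For complex II as a whole, the values in single types were as follows. In cones it was 0.40 while complexes I, III, IV and V gave -0.42, -0.29, -0.31 and -0.55. In RPE it was 0.75 while complexes I, IV and V gave -0.20, -0.40 and -0.31. In P23H V2 the interval of complex II lay above 0 in 5 of 12 types, and its ratio in cones was -0.22, so the 2 P23H libraries differ in this.

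Rods of the P23H V3 library had 32 genes called higher and 5 lower among 78 tested. Over all genes tested in rods, 26.4% were called higher and 7.75% lower, and the median log2 ratio was 0.46 for the group and 0.31 for all genes. The excess over the background is thus smaller than the raw count. By complex, 10 of 30 tested genes of complex I were higher, 2 of 3 of complex II, 2 of 6 of complex III, 7 of 14 of complex IV, 8 of 16 of complex V and 3 of 9 assembly factors. In P23H V2, 57 of 78 were higher and 6 lower, beside 42.0% and 14.9% of all genes. Of the 78 genes, 68 lay above 0. The share of all genes above 0 is not given here, so the count of 68 has no background beside it.

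In complex I, *ndufv1*, the flavoprotein subunit that accepts electrons from NADH, had 163 CPM in rods of WT V3, 388 in P23H V3 and 72.2 in P23H V2. The V3 and V2 libraries thus lay on opposite sides of WT, with log2 ratios of 1.25 and -1.18. Its partner *ndufv2* had 158, 284 and 251 CPM, higher in both. *Ndufa6*, an accessory subunit of complex I, had 294, 407 and 1042 CPM and was called in V2 only.

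In complex II, *sdha*, the flavoprotein that oxidises succinate, had 84.5 CPM in WT rods, 189 in P23H V3 and 98.9 in P23H V2. *Sdhb*, the iron-sulfur subunit, had 240, 540 and 456 CPM (log2 ratios of 1.17 and 0.93). *Sdhb* was high in both P23H libraries, while *sdha* was high in V3 and close to WT in V2.

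Several subunits of complexes III, IV and V had their lowest rod level in WT and their highest in P23H V2. Rod markers ran in the reverse order, with 30.8% of rod UMIs in WT V3, 18.0% in P23H V3 and 2.96% in P23H V2. Their part in these levels was not tested. *Uqcr10*, a small subunit of complex III, had 290, 539 and 1023 CPM in rods of WT V3, P23H V3 and P23H V2. *Cox6c*, a nuclear subunit of complex IV, had 307, 592 and 1335 CPM. *Atp5j2*, a membrane subunit of ATP synthase, had 482, 1081 and 2255 CPM. *Atp5a1*, the catalytic-head alpha subunit, had 414, 913 and 456 CPM, and was thus high in V3 and near WT in V2. *Atp5l*, the g subunit of the membrane part, had 751, 1318 and 2019 CPM.

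The rods' values changed with the totals used and with the deepest cells left out. The 20 most abundant genes took 48.2% of rod UMIs in WT V3, 35.3% in P23H V3 and 15.98% in P23H V2, and with totals that leave those genes out the summed log2 ratio of V3 was 0.15, with 12 genes higher. Taken per cell, the median rod had 2.34% of its UMIs from the group in WT V3 (840 cells), 2.27% in P23H V3 (494 cells) and 6.68% in P23H V2 (474 cells). The 5% of P23H V3 rods with the most UMIs held 14.4% of the rod UMIs, and the group made up 5.40% there and 3.01% in the other rods. Without the deepest 5% of cells of both libraries the log2 ratio was 0.33. With TMM scaling it was 0.22, with 17 genes higher, and counting an unnamed mixed cluster with the rods gave 0.21, with 9 higher and 9 lower. The share of all genes called is not given for these settings, so the counts do not show whether the group exceeds the background. The median P23H V3 rod therefore did not lie above the median WT rod, although the summed level did, and the part of the rhodopsin share in the difference was not tested.

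Cones of P23H V3 had 20 genes called lower and 3 higher among 87 tested, beside 19.6% lower and 16.4% higher over all genes. The median log2 ratio was -0.34 for the group and -0.05 for all genes, and 14 of the 87 genes lay above 0. The share called lower was thus near the background, and the shift of the whole group was the wider feature. In P23H V2, 37 of 86 were lower and 2 higher, beside 11.6% and 17.7% of all genes, with medians of -0.48 and 0.02.

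**Figure D3:**
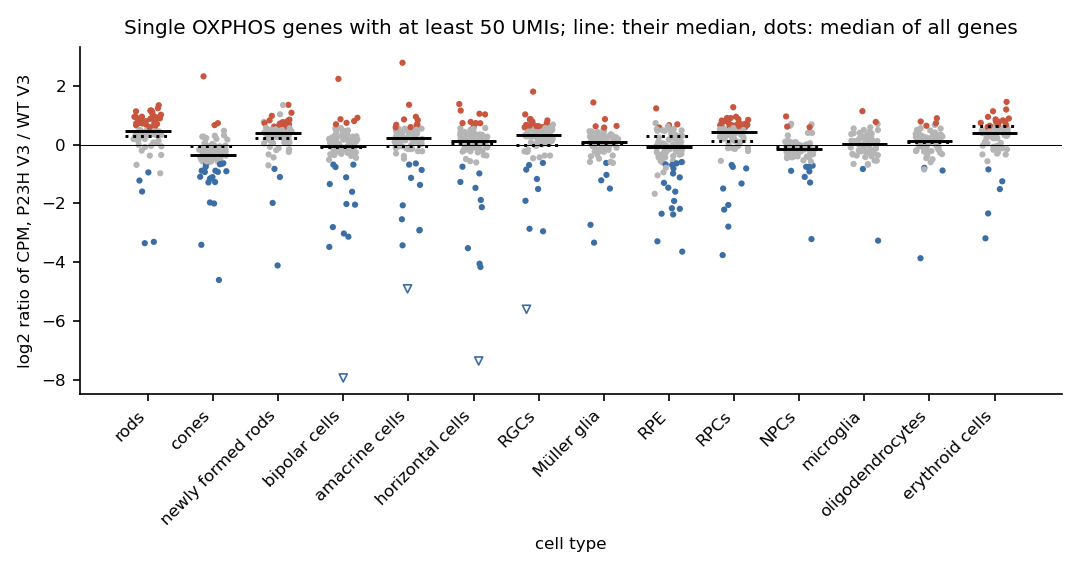
Log2 ratio of CPM of P23H V3 to WT V3 (y axis) for each tested gene of the group in each cell type, in red where called higher, blue where called lower and grey otherwise, with open triangles where P23H V3 had 0 UMIs and the value is a bound. The solid line is the median of the group and the dotted line that of all genes, 0.46 and 0.31 in rods and -0.34 and -0.05 in cones.

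Complex V was lowest relative to WT in cones, and all 16 of its genes lay below 0 in P23H V3. *Atp5g3b*, a copy of the c subunit that forms the rotating ring, had 3054 CPM in WT cones, 1607 in P23H V3 and 1511 in P23H V2, with log2 ratios of -0.93 and -1.02. *Atp5g1*, another c-subunit gene, had 1134, 608 and 604 CPM. *Atp5b*, the catalytic beta subunit, had 1885, 1222 and 910.3 CPM. WT was high and both P23H libraries were low and close together for *atp5g3b* and *atp5g1*. The third c-subunit gene, *atp5g3a*, had 1051, 913 and 432 CPM, so that P23H V3 was near WT and only P23H V2 was called lower. *Atp5l* (2028, 1648 and 1723 CPM) and *atp5a1* (1161, 1057 and 889 CPM) lay below WT in both but were not called.

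In complex I of cones, *ndufs3*, a core subunit, had 408 CPM in WT, 242 in P23H V3 and 218 in P23H V2. *Ndufa9a*, an accessory subunit, had 234, 147 and 150.2 CPM. *Ndufs7*, a core subunit near the quinone site, had 705, 290.2 and 714 CPM, and *ndufv3* had 257, 117 and 343 CPM, so that these 2 were low in P23H V3 and not in P23H V2. *Ndufv1* had 226, 201 and 95.01 CPM and was called lower in V2 only.

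*Sdha* went the other way in cones of P23H V3, with 256 CPM in WT, 428 in P23H V3 and 269.7 in P23H V2. *Cox15*, which makes heme A for complex IV, had 21.9, 34.9 and 18.4 CPM. Both had the highest V3 ratios among the cone genes with at least 100 UMIs, and in V2 neither was called. *Ndufb5*, a further gene called higher, had 12, 39 and 11 UMIs, a low count.

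The cone difference appeared in single cells too. The median cone had 5.30% of its UMIs from the group in WT V3, 3.93% in P23H V3 and 4.47% in P23H V2. The P23H V3 cones gave 4.35%, 4.34% and 4.44% in the 3 cone clusters, and the WT cones 5.76%, 5.86% and 4.74%, so the smallest cluster differed least (log2 ratio of -0.09 by itself). With totals that leave out the 20 most abundant genes the log2 ratio was -0.35. Beside this, the ribosomal and transfer RNAs of the mitochondrial genome made up 2.08% of cone UMIs in WT V3, 1.06% in P23H V3 and 0.558% in P23H V2. In rods they made up 0.623%, 0.897% and 0.289%. The protein genes of the mitochondrial genome were not analysed here, and the part of mitochondrial content in the difference was not tested.

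Newly formed rods, the young rods that replace lost ones, had 19 genes higher and 4 lower of 83 tested in P23H V3, beside 15.3% and 8.93% of all genes, with medians of 0.42 and 0.22. In P23H V2 they had 30 higher and 7 lower of 68, beside 31.3% and 18.9%, so the share called higher was above the background in both libraries. *Ndufa13*, a complex I subunit, had 59.0 CPM in WT, 152 in P23H V3 and 124 in P23H V2. *Cox17*, the copper chaperone of complex IV, had 129, 276 and 497 CPM. Both were above WT in each P23H library. The WT values rest on 142 cells, against 533 in P23H V3. Markers of newly formed rods made up 0.755% of the UMIs of these cells in WT V3, 1.49% in P23H V3 and 1.86% in P23H V2, and markers of mature rods 1.85%, 0.631% and 0.189%, and their part in the result was not tested.

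RPCs had 32 higher and 9 lower of 86 tested, beside 17.9% and 14.9% of all genes, and in P23H V2 41 higher and 7 lower of 78, beside 33.5% and 18.9%. In these RPCs the 9 RPC markers made up 0.416% of UMIs in WT V3, 0.274% in P23H V3 and 0.379% in P23H V2. The 7 markers of newly formed rods made up more, 0.719%, 0.908% and 1.52%, in the same order as the group, and their part in the result was not tested. RGCs had 17 higher and 9 lower of 86, beside 12.4% and 11.3%, and in P23H V2 17 higher and 10 lower of 80, beside 13.1% higher and 534 of 3539 genes lower. *Cox6c* had 744 CPM in WT RGCs, 1525 in P23H V3 and 1480.5 in P23H V2. *Ndufaf5*, a complex I assembly factor, had 44.1, 80.9 and 76.7 CPM. Both were higher in each P23H library, and the second was called in V3 only. The median RGC had 3.89% of its UMIs from the group in WT and 5.17% in P23H V3. Rod markers made up 1.12% of RGC UMIs in WT V3, 0.156% in P23H V3 and 0.102% in P23H V2.

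Amacrine cells had 11 higher and 11 lower of 89, beside 12.3% and 15.2% of all genes. Bipolar cells had 6 higher and 13 lower of 90, beside 12.8% and 18.7%. Horizontal cells had 9 higher and 10 lower of 86, beside 12.3% and 10.4%, and Müller glia 5 and 6 of 83, beside 11.8% and 10.6%. The calls of these types were near or under the background in both directions. In P23H V2, amacrine cells had 20 higher and 16 lower of 87, beside 17.7% and 20.1%, and bipolar cells 15 and 11 of 87, beside 14.1% and 8.57%. Horizontal cells had 15 higher and 16 lower of 81, beside 18.8% higher and 458 of 3047 genes lower. Müller glia had 11 and 18 of 81, beside 19.6% and 20.9%. *Ndufaf4*, a complex I assembly factor, had 25.1 CPM in WT bipolar cells, 47.5 in P23H V3 and 19.8 in P23H V2, and 21.9, 56.5 and 27.1 CPM in amacrine cells, and so was called in V3 only. NPCs had 3 higher and 8 lower of 72, beside 7.4% and 10.0% of all genes, microglia 2 and 2 of 61, beside 11.7% and 10.4%, and oligodendrocytes 4 and 3 of 63, beside 13.7% and 8.26%. In P23H V2, microglia had 9 and 2 of 43, beside 15.4% and 18.3%, and oligodendrocytes 7 and 1 of 55, beside 6.69% and 8.39%. Erythroid cells had 20 higher and 5 lower of 75, beside 36.8% and 7.12%. There the erythroid markers, mainly haemoglobin genes, took 66.7% of UMIs in WT V3 and 41.4% in P23H V3, and bipolar markers 0.170% and 0.648%. With totals that leave out the 20 most abundant genes the log2 ratio of erythroid cells was 0.16.

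In RPE 17 genes were lower and 4 higher of 85 tested, beside 8.53% and 23.5% of all genes, with medians of -0.08 and 0.29. In P23H V2 it was 8 lower and 3 higher of 85, beside 3.01% and 10.3%. The P23H V3 library held 165 RPE cells and the WT library 1109. The sum was 2.44% in WT, 2.06% in P23H V3 and 2.29% in P23H V2, but the RPE cells fell into 2 clusters. In one the group made up 2.80% in WT and 2.75% in P23H V3, and in the other 2.35% and 1.43%. Other signs moved with the library. RPE markers made up 2.08% of RPE UMIs in WT V3, 1.56% in P23H V3 and 1.36% in P23H V2, bipolar markers 0.0896%, 1.26% and 0.249%, and erythroid markers 0.0726%, 0.584% and 0.254%. The mitochondrial ribosomal and transfer RNAs made up 0.627%, 2.23% and 1.56%, and the part of these signs in the result was not tested. The second cluster held 5119174 UMIs in WT and 131271 in P23H V3. The direction of the RPE sum changed with the processing: assigning cells by marker genes gave 0.34 and TMM scaling -1.20. The RPE genes with the highest ratios among those with at least 100 UMIs, *cox6a1* and *cox7a2a*, both subunits of complex IV, were not called in the main processing.

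A few genes differed in nearly all types and in 1 direction. In P23H V3, 8 genes were called lower in at least 5 types and higher in none, and 10 were called higher in at least 5 and lower in none. A further 11 were called in both directions, depending on the type, and 13 tested genes were called in none. The same counts were not made over all genes, so they do not show whether the group stands out.

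**Figure D4:**
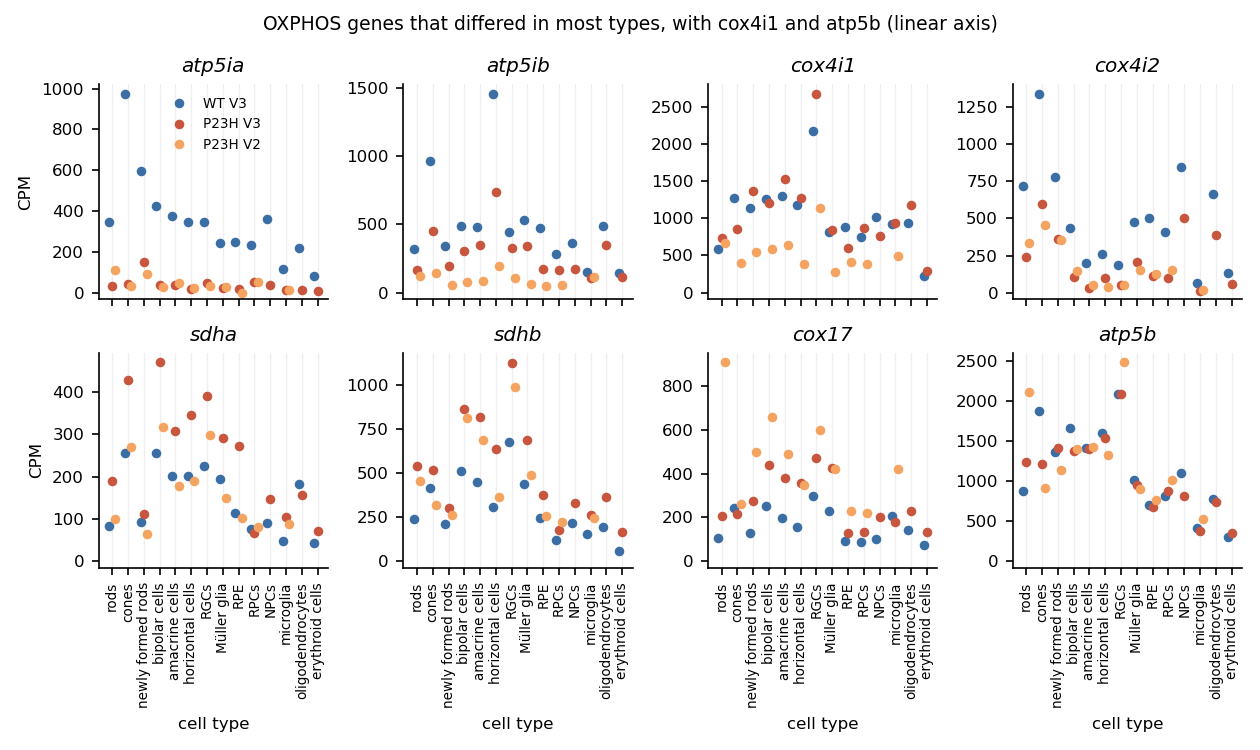
CPM (linear axis) in each cell type of 8 genes, in WT V3, P23H V3 and P23H V2; *cox4i1* and *atp5b*, seldom called in P23H V3, are shown beside genes called in most types. *Atp5ia* was called lower in 14 types in P23H V3 and 10 in P23H V2, *cox4i2* in 13 and 10, and *sdhb* was called higher in 11 and 4.

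*Atp5ia* was the most uniform. It and *atp5ib* are the copies of the e subunit of ATP synthase (current symbols *atp5mea* and *atp5meb* in RefSeq), which helps to join ATP synthases into dimers. *Atp5ia* had 14614 UMIs in the WT V3 library (458.1 CPM over all cells), 1273 in P23H V3 (41.0 CPM) and 121 in P23H V2 (46.7 CPM). It was lower in all 14 types in V3, with log2 ratios from -4.61 in cones to -1.98 in newly formed rods, and in 10 of 11 tested in V2. Cones had 972 CPM in WT V3, 39.9 in P23H V3 and 33.7 in P23H V2. Bipolar cells had 427, 38.3 and 26.4 CPM. Both P23H libraries were thus low in neurons and photoreceptors alike.

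The other copy, *atp5ib*, was lower in 9 of 14 types in V3 and 10 of 12 in V2, and in cones it had 965, 454 and 141 CPM. Summed, the 2 copies were lower in 14 of 14 types in V3 (log2 ratios from -1.97 to -0.86) and in 10 of 12 in V2. In WT cones *atp5ia* gave 50.2% of the UMIs of the pair, and in P23H V3 cones 8.08%. Reads of near-identical copies can be split or lost by the counting, and AB and uth4Tg fish may differ in sequence at a gene, so that a fish line difference at a single gene cannot be told apart from the transgene.

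*Cox4i2*, a form of subunit IV of complex IV that in mammals is tied to low oxygen, was lower in 13 of 13 types tested in V3 and in 10 of 11 in V2. Over all cells it had 616, 181 and 193 CPM in WT V3, P23H V3 and P23H V2. Cones held the highest level in both V3 libraries, 1337 and 599 CPM, with 457 in P23H V2. Summed with its copies *cox4i1* and *cox4i1l* it was lower in 2 of 14 types in V3, cones (-0.84) and RPE (-0.91). In V2 the sum was lower in 10 of 12, and there *cox4i1* was lower in 10 of 12 itself.

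*Cox4i1l* had 1403 UMIs in the WT library, 7 in P23H V3 and 3 in P23H V2. In WT its level was highest in horizontal cells, with 491 UMIs (459 CPM) and 24.1% of the subunit IV UMIs there. Bipolar cells held more of its UMIs, 598, at a lower level (132 CPM). P23H V3 had 0 UMIs in both types and P23H V2 had 1 and 2. Against a floor of 3 UMIs per library the log2 ratio of P23H V3 was at most -7.37 in horizontal cells and at most -7.95 in bipolar cells. P23H V3 held 503 horizontal and 5759 bipolar cells and WT 476 and 4091, so the library with 0 UMIs had the more cells of both types. As with *atp5ia*, AB and uth4Tg fish may differ in sequence at this gene. A fish line difference there cannot be told apart from the transgene.

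*Cox8b*, *cox7a2b* and *ndufs8b* were also lower in most types where they were tested (7 of 9, 8 of 11 and 9 of 11 in V3). Each has another copy, and the sums of the *cox8* and *cox7a* copies were lower in 0 types in V3. In V2 the *cox8* sum was lower in 5 of 12 types and higher in 1, and the *cox7a* sum was higher in 8 of 12. The sum of the *ndufs8* copies was lower in 2 of 12 in V3, rods (-0.83) and cones (-0.62), and in 7 of 10 in V2, where its median log2 ratio was -1.27.

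On the other side, *sdhb* was higher in 11 of 14 types in V3 and 4 of 12 in V2, *sdha* in 10 of 14 and 0 of 11, and *cox17* in 10 of 14 and 10 of 11. *Cox17* had 251, 440 and 660 CPM in bipolar cells of WT V3, P23H V3 and P23H V2, and 196, 380 and 489 CPM in amacrine cells. In horizontal cells it had 159, 357 and 346 CPM and in Müller glia 231, 425 and 420.3. Both P23H libraries lay above WT in these 4 types, and in cones (245, 215 and 264 CPM) P23H V3 lay below WT. *Cox6c* (8 of 14 and 7 of 12) and *uqcr10* (7 of 14 and 8 of 12) were likewise higher in both, while *uqcrfs1*, the Rieske iron-sulfur protein of complex III, was higher in 6 of 14 in V3 and 1 of 12 in V2.

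Some genes were called in other types or directions in V2 than in V3. *Cox7c* was higher in 12 of 12 types in V2 and in 3 of 14 in V3. *Cox4i1* was lower in 10 of 12 in V2 and in 0 of 14 in V3, and *atp5a1* in 8 of 12 and 0 of 14, with 1 type, the rods, higher in V3. *Ndufs7* was lower in 5 of 14 types in V3 and higher in 8 of 11 in V2. Chemistry and library cannot be told apart for these.

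Several subunit copies had much of their signal in few cell types. Among genes with at least 100 UMIs in their highest type, those whose level there was at least 4 times the median of the other types in both V3 libraries included *ndufs8b*, *ndufa4l2*, *sdhda*, *cox6b1*, *cox5b2* and *cox7a2b*.

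**Figure D5:**
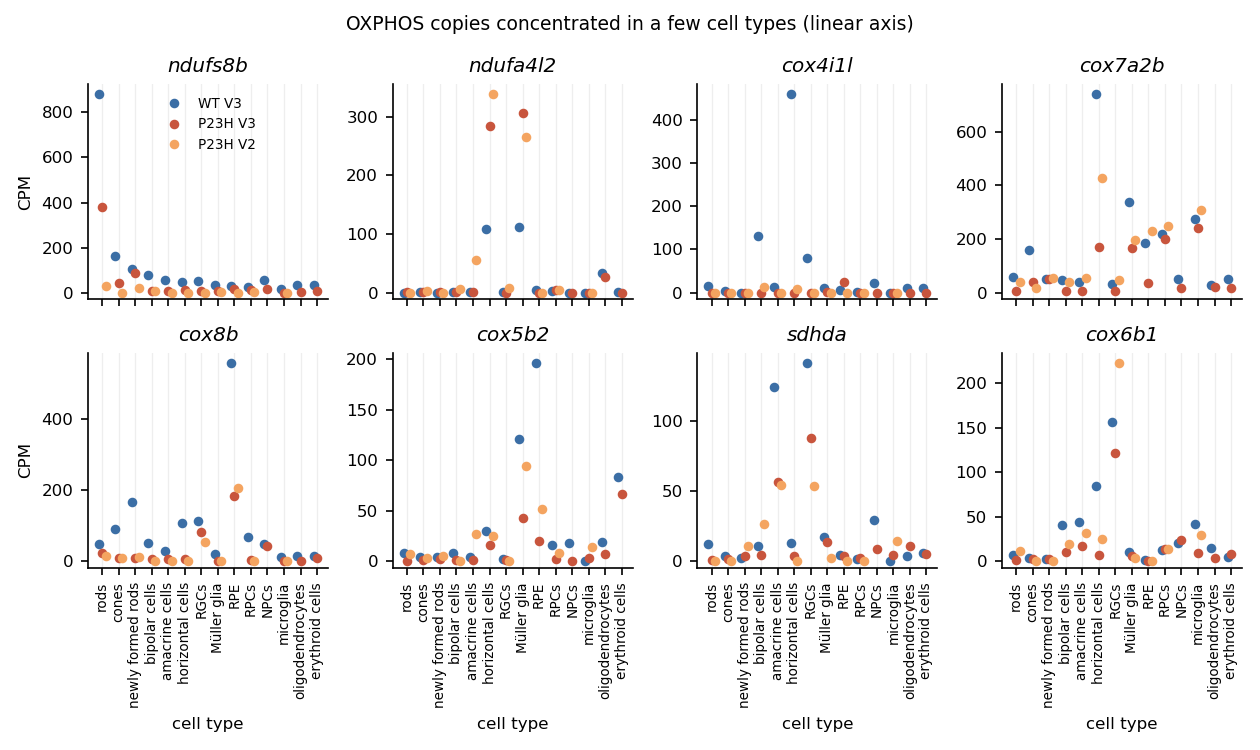
CPM (linear axis) in each cell type of 8 subunit copies with signal in few types, in WT V3, P23H V3 and P23H V2. *Ndufs8b* is highest in rods (879.8, 378 and 30.4 CPM), and *ndufa4l2* in Müller glia (112, 306 and 265 CPM) and horizontal cells (108, 284 and 338 CPM).

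*Ndufs8b*, a copy of an iron-sulfur core subunit of complex I, was highest in rods. It had 879.8 CPM in WT rods, 378 in P23H V3 and 30.4 in P23H V2, and the next type had 163 CPM in WT (cones) and 84.9 CPM in P23H V3 (newly formed rods). It gave 90.8% of the UMIs of the *ndufs8* pair in WT rods, 69.3% in P23H V3 and 20.0% in P23H V2. Its level thus followed the order of the rhodopsin share over the 3 libraries. Per 1000 *rho* UMIs there were 3.52 *ndufs8b* UMIs in WT rods, 5.59 in bipolar cells, 5.82 in amacrine cells and 34.6 in cones. The ratios of bipolar cells, amacrine cells and cones were all above that of rods, and the ratio of cones was the highest of them. The part of free rod RNA in these levels was not tested.

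*Ndufa4l2*, a relative of the complex IV subunit *ndufa4* that in mammals is raised by low oxygen, was measured mainly in Müller glia and horizontal cells. Müller glia had 112 CPM in WT V3, 306 in P23H V3 and 265 in P23H V2, with log2 ratios of 1.44 and 1.24. Horizontal cells had 108, 284 and 338 CPM, with ratios of 1.39 and 1.64. Both P23H libraries lay above WT in both types, and the median of the other types was under 1 CPM in both V3 libraries.

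*Sdhda*, a copy of the membrane anchor of complex II, was highest in RGCs (141 CPM in WT V3, 87.5 in P23H V3 and 53.7 in P23H V2) and amacrine cells (124, 56.8 and 54.1 CPM). It was lower in both P23H libraries in both types, unlike *sdha* and *sdhb* of the same complex. *Cox6b1* was highest in RGCs, with 156 CPM in WT V3, 121 in P23H V3 and 222 in P23H V2.

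*Cox7a2b* was highest in WT horizontal cells (739 CPM), where P23H V3 had 169 and P23H V2 429, and was highest in microglia in P23H V3 (242 CPM). *Cox8b* had 558 CPM in WT RPE, 184 in P23H V3 and 205 in P23H V2, and 48.5%, 20.9% and 19.0% of the *cox8* pair. *Cox5b2* had 196, 20.1 and 51.3 CPM in RPE and 121, 43.2 and 94.6 CPM in Müller glia. These 3 copies thus lay below WT in both P23H libraries in these types. *Cox7a2a*, which gave 51.2% of the *cox7a* UMIs of WT horizontal cells against 48.6% for *cox7a2b*, had 779, 1056 and 1740.0 CPM there and so lay above WT. In RPE the values of *cox5b2* and *cox8b* rest on 5 and 46 UMIs in P23H V3 and on 2 and 8 in P23H V2.

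Other mitochondrial genes were counted in the same way. In rods of P23H V3, 6 of 10 tested TCA cycle genes were higher and 1 lower, 3 of 4 regulators of mitochondrial biogenesis were higher, and 4 of 7 genes of cytochrome c and the carriers were higher, beside 26.4% of all genes. Of the pyruvate dehydrogenase genes 1 of 3 was higher and 1 lower, and of those that feed electrons in by other routes 0 of 2 were called. In rods of P23H V2, 7 of 10 TCA cycle genes were higher and 1 lower, 1 of 3 regulators was higher, and 3 of 7 genes of cytochrome c and the carriers were higher and 1 lower, beside 42.0% of all genes higher. *Cs*, citrate synthase, had log2 ratios of 1.81 in V3 and 1.31 in V2. *Ppargc1a*, a coactivator of mitochondrial genes, had 11 UMIs in WT rods, 45 in P23H V3 (2.57) and 2 in P23H V2, too few for a call. The TCA cycle genes were thus higher in most cases in both libraries, and most regulators tested were higher in V3 but not in V2.

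In cones of P23H V3, 3 of 14 TCA cycle genes were higher and 2 lower, 2 of 7 regulators were higher, and 1 of 7 genes of cytochrome c and the carriers was higher and 2 lower. Among them, *vdac1*, a pore of the outer membrane, gave -0.67 and *slc25a3a*, a phosphate carrier, -0.60. In P23H V2, 3 of 12 TCA cycle genes were higher and 4 lower, and 4 of 7 genes of cytochrome c and the carriers were lower. Over all genes tested in cones, 16.4% were higher and 19.6% lower in V3, and 17.7% and 11.6% in V2. The TCA cycle calls of V3 were near these shares, and the lower calls of both lists in V2 were above them. In cones the members of these lists were thus called in both directions.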

How the data were processed

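Retinal cells of 3 pooled fish per library were measured by 10x 3' single-cell RNA sequencing. The authors aligned reads to GRCz11 with Cell Ranger 3.1.2.0 (version from the submitters' processing notes) and deposited whole-number UMI counts, not normalized. Cells with at least 200 genes, at most 4700 (P23H) or 6000 (WT) genes and at most 10% mitochondrial UMIs were kept. The V3 libraries were integrated in Seurat 5.3.0 (R 4.3.3, Matrix 1.6.5; 2000 variable genes without the 107 genes, 20 components, resolution 0.8), and V2 was clustered alone. Clusters needed 3 markers at 2 times the level of other cells (pseudocount 10 CPM, 5% of cells). A cluster correlated above 0.9 with all other cells stayed unnamed, a limit set after seeing the clusters. No doublet caller was run. Sums, exact Poisson and binomial intervals and calls used scipy 1.17.1, edgeR 4.0.16 (TMM only), pandas 2.3.3, numpy 2.4.6, Python 3.11.15 and matplotlib 3.10.9. The calls were tested on simulated Poisson counts. Such counts leave out the variation between fish and between preparations, so the test cannot show how often that variation gives a call. Genes named have the 2 highest or lowest ratios per type among those with at least 100 UMIs, are named by the study, are type-restricted or are subunit copies, or were chosen after their values were seen (*atp5g3b*, *atp5g1*, *atp5b*, *ndufs3*, *ndufa9a*, *ndufs7*, *ndufv2*, *ndufv3*, *atp5j2*, *cox7c*, *ndufb5*, *uqcr10*, *uqcrfs1*). *Fh*, *ucp2*, *idh3a*, *ppargc1a*, *ppargc1b*, *slc25a3a* and *vdac1* come from the lists of other mitochondrial genes and were not chosen by these rules. The study names *atp5a1* and *atp5l* for RGCs and *ndufa6* for amacrine cells. The levels of these genes in those types are not given here. Members and lists were chosen with earlier results of these data known. Symbols were matched to RefSeq (GRCz12tu) for names only.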

Additional observations from a re-analysis of the deposited data

Results flagged for a closer look

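The summed log2 ratio to WT V3 was below 0 in cones of both P23H libraries (-0.40 in V3 and -0.32 in V2) and above 0 in rods of both (0.47 in V3 and 1.46 in V2). The median P23H V3 rod (2.27% of UMIs) did not lie above the median WT rod (2.34%). Rod markers made up 2.96% of UMIs in the P23H V2 rods, beside 30.8% in WT V3. The difference between the cell types was not tested, since each library is 1 pool of fish and both ratios share the WT library.

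*Atp5g3b*, a c subunit of ATP synthase, gave 0.87 and 1.66 in rods (V3 and V2) and -0.93 and -1.02 in cones, and also -0.59 and -0.60 in RPE. *Ndufa9a*, of complex I, gave 0.71 and 1.52 in rods and -0.67 and -0.64 in cones. Each was past the rule of size in every one of these cases in the main processing. The summed rod ratio of V3 was 0.15 with totals that leave out the 20 most abundant genes. The rod ratios of these genes with such totals are not given here. In RPE *atp5g3b* rests on 213 UMIs in P23H V3 and 33 in P23H V2, and the direction of the RPE sum changed with the processing. The difference between cell types was not tested for either gene.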

How the results depend on the processing

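The summed ratio of rods was 0.47 in the main processing, 0.53 with at least 500 genes per cell and also with cells assigned by marker genes, 0.33 without the deepest 5% of cells, 0.22 with TMM scaling, 0.15 without the 20 most abundant genes, 0.21 with the mixed cluster counted as rods, 0.34 in rod cluster 18 alone and 1.46 with P23H V2. The 32 genes higher in rods became 12 without the 20 most abundant genes, 17 with TMM, 9 with the mixed cluster, 9 at a ratio of 2 and 57 with V2. For cones the ratio of -0.40 became -0.35 without those 20 genes, -0.43 with TMM, -0.43 and -0.092 in cone clusters 4 and 27 and -0.32 with V2, and the 20 genes lower became 10 at a ratio of 2 and 37 with V2. The share of all genes called in each setting is not given beside these rod and cone counts. They therefore do not show whether the group exceeds the background. The WT cone level of 5.76% was 5.85% with 500 genes, 5.78% at a mitochondrial limit of 5%, 5.73% with cells assigned by markers and also without the deepest 5% of cells, 5.79% with background subtracted and 10.1% without the 20 most abundant genes. Of 36 gene results followed over the settings, 4 that were called in the main processing changed sign with V2 in place of V3: *ndufv1* in rods (-1.18), *cox15* in cones (-0.25), *ndufaf4* in bipolar cells (-0.34) and *cox7a2b* in amacrine cells (0.42). Outside these 36, *ndufs7*, *ndufv3* and *cox17* in cones and *cox6b1* in RGCs also lay on opposite sides of WT in V3 and V2. The cause was not tested. Of 364 values for named genes, 349 kept their status as called or not called. Direction was checked only for genes called in the main processing. The mixed cluster and single clusters were chosen after seeing the data. No paired analysis was possible because each group is 1 library. P23H V2, with a median of 293 UMIs per barcode, has the widest intervals.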

Other observations

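Genes around the respiratory chain differed in several types of P23H V3. *Ppargc1b*, a coactivator of mitochondrial genes, was higher than in WT V3 in 10 of 14 types and lower in 0 (5 of 9 higher in V2), and *ucp2*, an uncoupling protein of the inner membrane, was higher in 7 of 9 (2 of 6 in V2). *Idh3a*, a TCA cycle subunit, was higher in 7 of 10 types (3 of 7 in V2). *Fh*, fumarate hydratase, which acts directly after complex II in the cycle, was lower in 7 of 7 types (3 of 7 in V2). Its log2 ratios ran from -4.90 (-7.98 to -2.98, on 2 UMIs of P23H V3) in horizontal cells to -3.32 in Müller glia. In RPE, where P23H V3 had 0 UMIs, the ratio was at most -1.63. A fish line difference at *fh* cannot be told apart from the transgene. The phosphate carrier *slc25a3a* was lower in 10 of 13 types (9 of 11 in V2). Counts of types per gene were not made over all genes, so those given here have no background beside them.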
